A study of Rattus norvegicus with 9 samples.

Results

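The genes that build the contractile unit of the right ventricle of the rat heart were described on 9 Affymetrix Rat Gene 1.0 ST arrays, 3 in each of 3 groups. The list held 38 genes of the sarcomere and its Z-disc, chosen by symbol, and a gene counted as measured when a feature of the array carried its symbol and no other. By this rule 30 of the 38 were measured, each by 1 feature, out of 14506 genes with such a feature and 29215 features in all. The F+ group (labelled PAB_F(+)) and the F- group (labelled PAB_F(-)) were male SD (Sprague-Dawley) rats with pulmonary artery banding, an operation that narrows the artery leaving the right ventricle and so raises the pressure against which this chamber works. The study divided the banded rats weeks after the operation by the share of the heart tissue that was fibrotic, with the larger shares in F+, so this division was made by outcome and not by treatment. The sham group held male SD rats with a sham operation. No age and no genetic change is given in the sources used here. Whether the 3 arrays of a group stand for 3 animals is not stated, so p-values here reflect array-to-array spread only, and that spread could be technical.

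The sarcomere is the repeating unit in which myosin of the thick filament pulls on actin of the thin filament. The thin filament is switched on by calcium through troponin and tropomyosin. Z-discs anchor the thin filaments at both ends of the unit, the M-band links the thick filaments at its centre, and titin spans from one to the other. Desmin ties the Z-discs of neighbouring myofibrils together, and muscle ubiquitin ligases mark sarcomere proteins for breakdown. A ventricle under pressure load adds sarcomeres and is known to shift between fetal and adult isoforms of these proteins.

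The measured genes were 5 of 6 thick filament genes, 9 of 9 thin filament genes, 11 of 15 Z-disc genes, 1 of 3 M-band genes, 2 of 3 genes of the desmin cytoskeleton and costamere, and 2 of 2 ubiquitin ligase genes. Not measured were Myl4, Tcap, Flnc, Nebl, Synpo2l, Myom2, Myom3 and Cmya5. The deposited values are intensities of unstated scale. Their medians were 33.4 to 33.9 on the 9 arrays and their highest values 188.4 to 190.4. On a log2 scale the median standard deviation within groups was 0.107 for the dimmest 33.3% of features and 0.0423 for the brightest 33.3%, and on a square-root scale it was 0.143 and 0.121. If the values are squares of log2 intensities, a difference of their square roots is a log2 fold change, and log2 of the values as deposited gives folds that are too small. Each fold change below is therefore log2 of the deposited values unless it is called a square-root fold, which is the fold under that other reading. Which reading is right was not settled.

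No member passed the test at an adjusted p under 0.05 in any of the 3 comparisons, in which limma was fitted over all features. The 3 comparisons share arrays, so they are not independent of each other. Before the single genes, 2 arrays stand out. With 3 arrays in a group, 2 lie at its ends for any gene without ties, so counts of this kind are large by construction. For 26 of the 30 members F- array 1 lay outside the range of the other F- arrays, above them for 14 and below them for 12, whereas the same number for the other 8 arrays was 12 to 23. Nppa, the gene of atrial natriuretic peptide, gave 155.6 on that array against 37 and 43.6 on the other F- arrays. Such high values were not particular to it, as Nppa gave 149.5, 134.3 and 140.2 on the F+ arrays. In sham it gave 57.7, 135.8 and 59.7, with array 2 high. Sham array 2 gave 115.1 for Sln and 149.9 for Myl7, genes of the atrial proteins sarcolipin and atrial light chain, against 43.9 to 53.8 and 88.5 to 92.2 on the other sham arrays. Over 9 atrial genes the summed value was 530.1 to 567.7 on the F+ arrays, 470.9 to 533.1 on the F- arrays, and in sham 499.2 to 787.2. Myl2, the ventricular light chain, was at 139.8 or above on every array. When arrays were left out one at a time, the 12 members with the largest moderated t in a comparison kept their direction in all 3 comparisons. Of the other 18 members, 4 turned in F+ against F-, 8 in F+ against sham and 15 in F- against sham.

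The comparison of F+ with F- asks how banded ventricles with more fibrosis differ from banded ventricles with less. Here 7 members had higher and 23 had lower values in F+, the median log2 fold change being -0.024, against -0.0023 over all features. Of all features 48.3% had higher and 51.6% had lower values in F+. Among all features 0.00342% passed the adjusted threshold in this comparison. At an unadjusted p under 0.05, 2 members were higher (Fhl1 and Tpm2, where 3.65% of all features were) and 2 were lower (Myom1 and Myl2, where 3.76% were). The groups did not overlap, with F+ higher, for 1 member (Fhl1, background 4.46%) and, with F+ lower, for 4 members (Tpm1, Myom1, Actn2 and Myoz2, background 5.28%). In this comparison all 5 thick filament genes had lower values in F+ (median -0.020), as had 7 of 9 thin filament genes (-0.024), 7 of 11 Z-disc genes (-0.025) and both ubiquitin ligase genes (-0.086). Without F- array 1 Mybpc3 (0.0073), Lmod2 (0.026) and Csrp3 (0.0044) turned, which left 4 of 5 thick filament genes, 6 of 9 thin filament genes, 6 of 11 Z-disc genes and both ligase genes lower. The median over the 30 members was -0.016 with quantile normalization, and 22 were then lower. Without F- array 1, 12 members reached an unadjusted p under 0.05 in place of 4 (Tpm2, Myot, Pdlim5 and Fhl1 higher, 8 lower), with a lowest adjusted p of 0.118 from limma (Tpm2), and 20 were lower. That fit changed other features too, and 3 of all features passed the adjusted threshold in place of 1. The shares of all features above hold only for the fit with all 9 arrays, so the 12 members have no background here. The count of members at an unadjusted p under 0.05 was 0 without F+ array 3 or F- array 2, 1 without F- array 3, and 2 without sham array 1 or sham array 3.

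Myom1, which encodes the M-band protein myomesin 1 that cross-links thick filaments, gave 101.4, 102.4 and 101 on the F+ arrays, with 104.9, 110.2 and 106.4 on the F- arrays, against 104.9, 106.9 and 104.9 on the sham arrays. All 3 F+ arrays lay below all 6 other arrays. The log2 fold change of F+ over F- was -0.077 (standard error, SE, 0.026, limma adjusted p = 0.639), with a square-root fold of 0.828. It was the member with the largest moderated t in this comparison, and its unadjusted p also stayed under 0.05 without any one array except F+ array 3 or F- array 2.

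Myl2, which encodes the regulatory light chain of ventricular myosin, gave 144.2, 146.8 and 139.8 on the F+ arrays, with 146.8, 152.6 and 153.9 on the F- arrays, against 145.8, 144.6 and 148.8 on the sham arrays. The highest F+ array and the lowest F- array were level. For this gene the log2 fold change was -0.073 (SE 0.030, limma adjusted p = 0.671), with a square-root fold of 0.807. The other thick filament genes differed less. Myh6, the fast adult myosin heavy chain of the rodent heart, gave 152.7, 154.9 and 152.9 on the F+ arrays, with 152.1, 161.5 and 158.7 on the F- arrays, against 144.6, 161.2 and 159.2 on the sham arrays, and the groups overlapped. Ttn, the gene of the giant spring protein titin, gave 141.4, 143.4 and 142.4 on the F+ arrays, with 143.3, 145.6 and 144.2 on the F- arrays, against 144.5, 143.6 and 144.2 on the sham arrays. Its F+ arrays lay just below the sham arrays and overlapped the F- arrays by 1 array. Myl3, the essential light chain, and Mybpc3, myosin binding protein C, had log2 fold changes of -0.010 and -0.0072 in this comparison.

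Fhl1, which encodes a four-and-a-half-LIM protein that binds titin, gave 122.3, 123.2 and 121 on the F+ arrays, with 120.8, 109.9 and 112.1 on the F- arrays, against 117.9, 112 and 116.5 on the sham arrays. Every F+ array lay above every other array, but F- array 1 was only just below them. On the log2 scale its fold change of F+ over F- was 0.098 (SE 0.040, limma adjusted p = 0.671), with a square-root fold of 1.29, and the log2 value was 0.14 without F- array 1 and 0.070 without F- array 2. Fhl2, its relative, gave 133.6, 133.3 and 130.1 on the F+ arrays, with 132.7, 142.9 and 145.6 on the F- arrays, against 127.9, 140.6 and 136.9 on the sham arrays. The F+ arrays sat within the range of the sham arrays and below F- arrays 2 and 3 only. Fhl2 had a log2 fold change of -0.084 (SE 0.047, limma adjusted p = 0.711).

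Tpm2, which encodes beta-tropomyosin, an isoform that is minor in the adult rodent ventricle, gave 52.8, 53.3 and 60.3 on the F+ arrays, with 55.1, 38 and 34.3 on the F- arrays, against 44.3, 47.6 and 38 on the sham arrays. All F+ arrays lay above all sham arrays, while F- array 1 lay among the F+ arrays and the other F- arrays lay well below. Its log2 fold change of F+ over F- was 0.41 (SE 0.17, limma adjusted p = 0.671), with a square-root fold of 1.95. This value was 0.62 when F- array 1 was left out (limma adjusted p = 0.118) and 0.27 when F- array 3 was. Myot, which encodes the Z-disc protein myotilin, gave 50, 54.1 and 42.3 on the F+ arrays, with 58, 28.6 and 35.8 on the F- arrays, against 43.7, 35.6 and 31.2 on the sham arrays. Its highest value was on F- array 1 and its lowest on F- array 2. Myot had a log2 fold change of 0.32 (SE 0.25, limma adjusted p = 0.784) and, with F- array 1 left out, one of 0.60 (limma adjusted p = 0.287), but without F- array 2 it was 0.091.

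**Figure D1:**
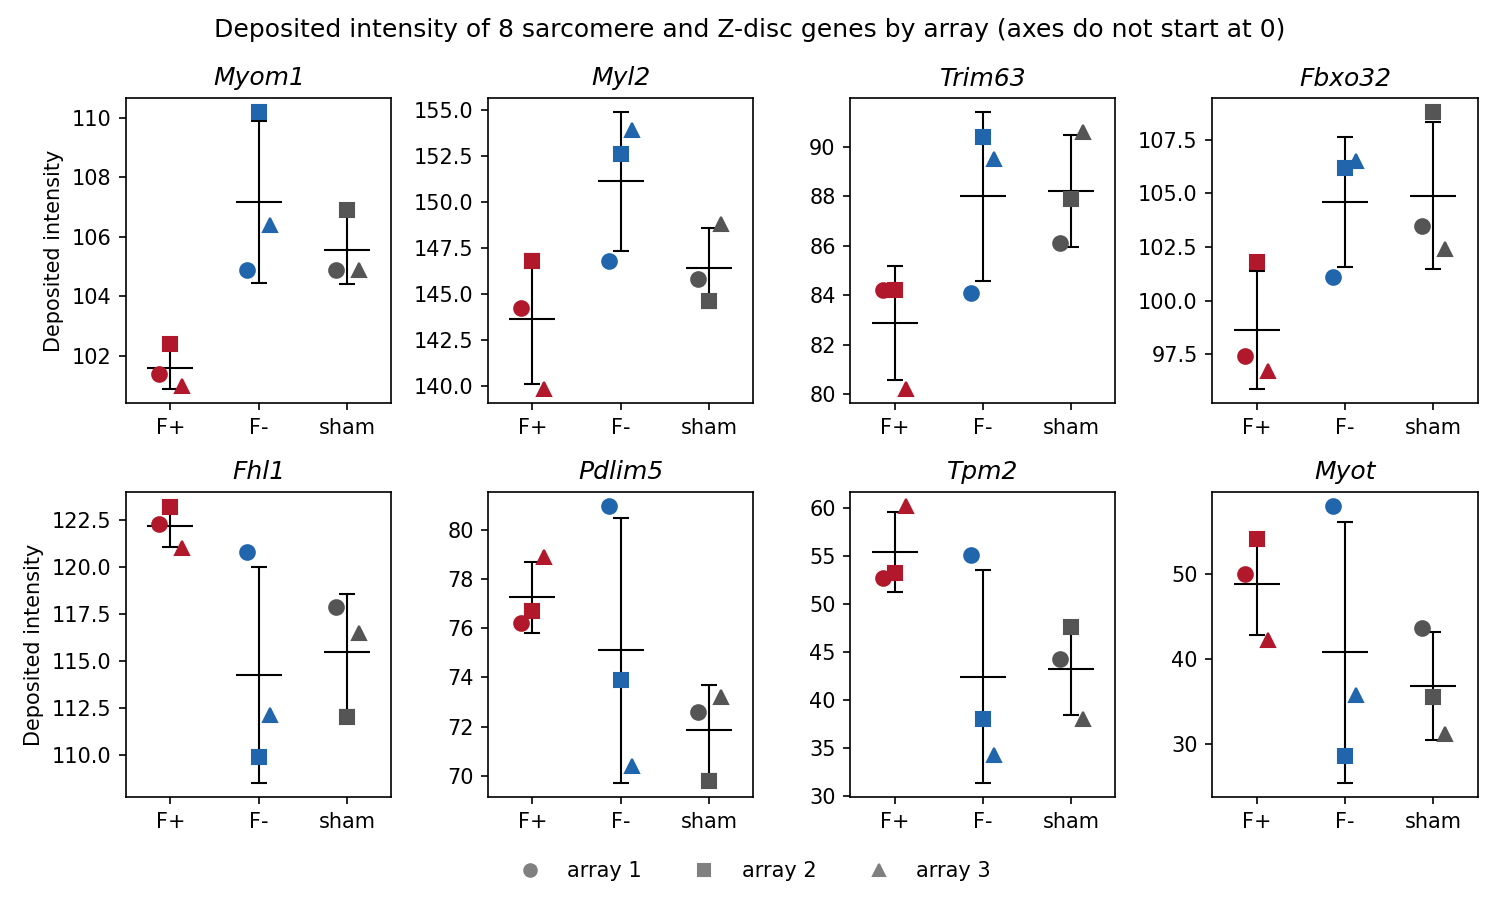
Deposited intensity (vertical axes, which do not start at 0) of 8 genes on each array of the F+, F- and sham groups, drawn as a circle for array 1, a square for array 2 and a triangle for array 3, group means as horizontal lines and error bars of 1 standard deviation (n = 3). For Myom1 the F+ arrays, at 101 to 102.4, lie below all others, and for Tpm2 F- array 1, at 55.1, lies with the F+ arrays.

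Both muscle ubiquitin ligase genes had lower values in F+. Trim63, which encodes MuRF1, gave 84.2, 84.2 and 80.2 on the F+ arrays, with 84.1, 90.4 and 89.5 on the F- arrays, against 86.1, 87.9 and 90.6 on the sham arrays. Fbxo32, which encodes atrogin-1, gave 97.4, 101.8 and 96.7 on the F+ arrays, with 101.1, 106.2 and 106.5 on the F- arrays, against 103.5, 108.8 and 102.4 on the sham arrays. For both genes the F+ arrays lay below all sham arrays, and F- array 1 was the array that overlapped them. Against F- the log2 fold changes were -0.086 for Trim63 (SE 0.038, limma adjusted p = 0.674) and -0.085 for Fbxo32 (SE 0.037, limma adjusted p = 0.673), with square-root folds of 0.825 and 0.815. Without F- array 1 they were -0.12 and -0.11, and neither passed after adjustment (adjusted p = 0.297 and 0.367 from limma).

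The inhibitory troponin genes also had lower F+ values, with overlap. Tnni3, the adult cardiac troponin I gene, gave 142.9, 142.2 and 138.6 on the F+ arrays, with 142.7, 148.6 and 149.3 on the F- arrays, against 142.6, 146 and 147.1 on the sham arrays. The fetal troponin I gene Tnni1 gave 33.8, 30.9 and 29.9 on the F+ arrays, with 32.1, 34.9 and 34.8 on the F- arrays, against 35.5, 33.8 and 33.8 on the sham arrays, values near the median of the arrays. In both genes F+ array 3 was the lowest of all 9 arrays. Their log2 fold changes of F+ over F- were -0.056 for Tnni3 (SE 0.028, limma adjusted p = 0.687) and -0.11 for Tnni1 (SE 0.054, limma adjusted p = 0.689), the second of which was -0.069 without F+ array 3. Tnnc1, the calcium sensor troponin C, gave 151.6, 159.4 and 141.3 on the F+ arrays, with 161.1, 158.3 and 161.2 on the F- arrays, against 141.4, 160 and 154.7 on the sham arrays. The F- arrays were tight and high, while F+ array 3 and sham array 1 were low. The log2 fold change was -0.089 (SE 0.057, limma adjusted p = 0.735), and without F+ array 3 it was -0.043.

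Of the 12 members with the largest moderated t, Myoz1 and Ldb3 remain. Myoz1, a calcineurin-binding Z-disc protein known mainly from fast skeletal muscle, gave 34.2, 33.9 and 34.2 on the F+ arrays, with 34.2, 36 and 35.7 on the F- arrays, against 34.2, 34.2 and 34.1 on the sham arrays, and only F- arrays 2 and 3 stood above the rest. Like those of Tnni1, these values lay near the median of the arrays. The log2 fold change was -0.050 (SE 0.026, limma adjusted p = 0.698). Ldb3, whose product ZASP holds alpha-actinin at the Z-disc, gave 121.2, 115.7 and 115.2 on the F+ arrays, with 118.5, 123.1 and 123.7 on the F- arrays, against 120.5, 122.1 and 124.6 on the sham arrays. F+ arrays 2 and 3 were the lowest of all, and F+ array 1 lay within the other groups. For this gene the log2 fold change was -0.053 (SE 0.031, limma adjusted p = 0.722). The other 18 members had log2 fold changes of F+ over F- between -0.068 (Pdlim3) and 0.32 (Myot), with adjusted p of 0.760 to 0.961 from limma.

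For 3 more members the arrays of F+ lay apart from those of F- by small margins. Tpm1, the main tropomyosin of the heart, gave 125.4, 128.9 and 128.9 on the F+ arrays, against 130.2, 130.6 and 130.4 on the F- arrays. Actn2, the alpha-actinin that cross-links thin filaments at the Z-disc, gave 145.9, 146.2 and 144.8 on the F+ arrays, against 147.3, 148.5 and 147.2 on the F- arrays. Myoz2, the cardiac calsarcin, gave 137.1, 137.4 and 136.3 on the F+ arrays, against 140.7, 138.7 and 138.5 on the F- arrays. The F+ arrays were the lower ones each time, with log2 fold changes of -0.030 for Tpm1, -0.020 for Actn2 and -0.025 for Myoz2. Without F+ array 1, the lowest of its arrays, Tpm1 was at -0.017. With 3 arrays against 3, an exact two-sided permutation test cannot give a p below 0.1, which is the value for each of these genes.

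**Figure D2:**
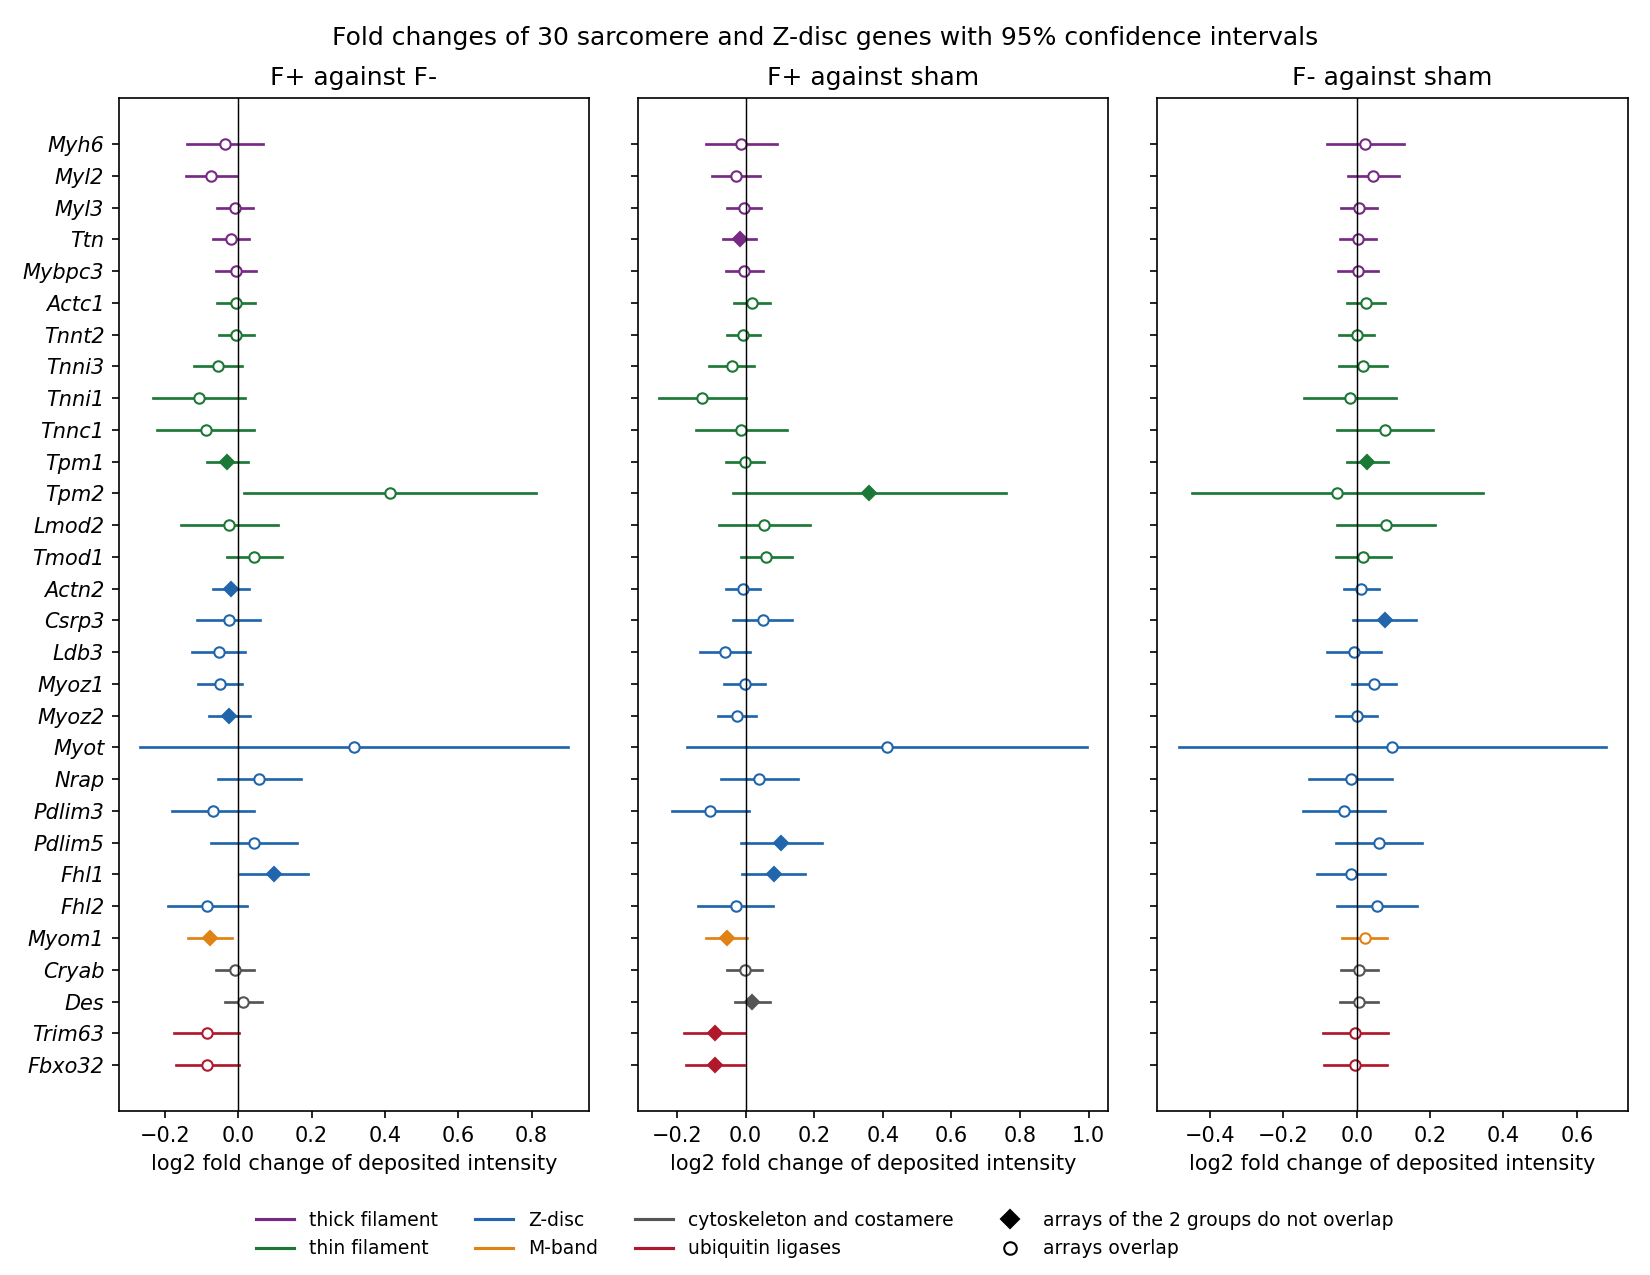
Log2 fold change of the deposited intensity with 95% confidence intervals (horizontal axes) for the 30 measured genes, ordered by class, in F+ against F-, F+ against sham and F- against sham; filled diamonds mark genes whose arrays do not overlap between the groups compared. Most values lie close to 0, and the widest intervals belong to Tpm2 and Myot.

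The promoters of members with the lowest unadjusted p in the comparison of F+ with F- are shown as examples, although no member passed the adjusted threshold. Factors that drive muscle genes are known to bind motifs of the kinds marked below. A link between these sequences and the values was not tested. Of the first 6 members by p, Myom1, Fhl1, Tpm2 and Trim63 had an entry in the RefSeq table of rat promoters (build GRCr8), which gives 250 bases before and 50 bases after a transcript start. The windows are chr9:118366896-118367195 on the plus strand for Myom1, chrX:139638246-139638545 on the plus strand for Fhl1, chr5:62575677-62575976 on the minus strand for Tpm2 and chr5:151816986-151817285 on the plus strand for Trim63. That of Fhl1 is 1 of 2 for this gene, and all 4 starts lie inside the annotated gene, downstream of its first base. Capitals mark matches, on either strand, to the MEF2 motif, the CArG box of serum response factor, the E-box (CANNTG) or the M-CAT motif (CATTCC) of TEAD factors.
Myom1: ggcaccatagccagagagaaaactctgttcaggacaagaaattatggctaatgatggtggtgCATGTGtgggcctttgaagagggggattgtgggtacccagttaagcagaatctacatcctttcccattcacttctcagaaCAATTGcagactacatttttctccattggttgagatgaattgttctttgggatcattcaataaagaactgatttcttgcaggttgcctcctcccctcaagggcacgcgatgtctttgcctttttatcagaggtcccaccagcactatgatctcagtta
Fhl1: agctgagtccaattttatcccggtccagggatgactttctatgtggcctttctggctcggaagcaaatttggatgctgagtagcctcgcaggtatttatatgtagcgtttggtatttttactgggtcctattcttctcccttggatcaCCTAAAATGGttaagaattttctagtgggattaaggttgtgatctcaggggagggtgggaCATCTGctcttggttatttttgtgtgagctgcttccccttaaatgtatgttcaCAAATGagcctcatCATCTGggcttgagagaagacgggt
Tpm2: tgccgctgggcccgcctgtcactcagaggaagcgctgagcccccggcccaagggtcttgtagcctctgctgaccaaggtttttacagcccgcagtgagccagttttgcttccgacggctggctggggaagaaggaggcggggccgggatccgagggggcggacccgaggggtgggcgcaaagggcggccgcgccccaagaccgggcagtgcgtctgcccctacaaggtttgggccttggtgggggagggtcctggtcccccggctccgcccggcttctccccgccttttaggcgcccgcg
Trim63: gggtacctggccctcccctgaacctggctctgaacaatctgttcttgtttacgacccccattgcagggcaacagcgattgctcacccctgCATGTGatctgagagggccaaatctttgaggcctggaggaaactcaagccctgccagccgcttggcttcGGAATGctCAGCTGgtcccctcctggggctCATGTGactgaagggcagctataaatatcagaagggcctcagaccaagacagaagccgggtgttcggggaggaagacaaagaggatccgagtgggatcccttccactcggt
Myom1 held 2 E-boxes, the Fhl1 window shown held 1 CArG box and 3 E-boxes, Trim63 held 3 E-boxes and 1 M-CAT motif, and Tpm2 held no match. The other Fhl1 window, which is not shown, held 3 E-boxes and no CArG box. Over the 25 windows of the 22 members in the table, a CArG box was found in 6 (5 genes), a MEF2 motif in 5 (5 genes), an M-CAT motif in 7 (7 genes) and an E-box in 21 (18 genes). The shares of all 33469 windows of the same length were 1.64% for the CArG box, 3.29% for MEF2, 14.2% for M-CAT and 72.1% for the E-box. A match is a stretch of letters and not a measured binding site.

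Against sham, the F+ group shows banding together with fibrosis. Of the members, 10 had higher and 20 had lower values in F+, with a median log2 fold change of -0.0053 against -0.0035 over all features, and with median centring of the arrays the median was 0.0019 and 16 members were higher, so the direction of the list as a whole turned with the scaling. Without that centring 47.4% of all features were higher and 52.5% lower. No feature passed the adjusted threshold (0%). At an unadjusted p under 0.05, 0 members were higher (background 3.5%) and 3 were lower (Tnni1, Trim63 and Fbxo32, background 3.9%). The number of lower members was 0 with median centring and without F+ array 3, F- array 3 or sham array 2, 1 without F- array 2 or sham array 1, and 2 without F+ array 1, F+ array 2 or sham array 3, and these were not always members of the first 3. Without F- array 1 the 3 were lower and 4 others higher (Tpm2, Myot, Pdlim5 and Fhl1). With F- array 3 left out, 2 members were higher (Tpm2 and Pdlim5). The F- arrays have no part in the fold changes of F+ over sham, so leaving them out changed these counts through the error estimate. The 3.5% and 3.9% hold only for the fit with all arrays and no centring. Counts with an array left out or with centring therefore have no background here. The arrays of the groups did not overlap for 4 members with F+ higher (Tpm2, Des, Pdlim5 and Fhl1, background 5.69%) and for 4 with F+ lower (Ttn, Myom1, Trim63 and Fbxo32, background 6.56%). An exact permutation p is 0.1 for each of these.

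The ubiquitin ligase genes led this comparison. Fbxo32 had a log2 fold change of F+ over sham of -0.089 (SE 0.037, limma adjusted p = 0.666) and Trim63 one of -0.090 (SE 0.038, limma adjusted p = 0.670), with square-root folds of 0.806 and 0.819. Against sham the F- group differed little in both genes, with -0.0040 for Fbxo32 and -0.0037 for Trim63, and both turned to higher values without F- array 1. Tnni1 had -0.13 (SE 0.054, limma adjusted p = 0.670) and Myom1 -0.055 (SE 0.026, limma adjusted p = 0.690). Tnni3 and Ldb3 had -0.040 and -0.061 (SE 0.028 and 0.031, limma adjusted p = 0.756 and 0.698), and Tnni3 was at -0.027 without F+ array 3.

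Among the Z-disc PDZ-LIM genes, whose proteins dock signalling enzymes on alpha-actinin, the members went in different directions. Pdlim5 gave 76.2, 76.7 and 78.9 on the F+ arrays, with 81, 73.9 and 70.4 on the F- arrays, against 72.6, 69.8 and 73.2 on the sham arrays. All F+ arrays lay above all sham arrays, and the F- arrays spanned both. On the log2 scale its fold change of F+ over sham was 0.10 (SE 0.051, limma adjusted p = 0.690), with a square-root fold of 1.24. Pdlim3 gave 72.7, 78 and 74.1 on the F+ arrays, with 78.2, 76.5 and 80.9 on the F- arrays, against 81.7, 84.4 and 75.5 on the sham arrays. F+ arrays 1 and 3 were the lowest of all 9, and F+ array 2 overlapped the sham arrays. Pdlim3 had a log2 fold change of -0.10 (SE 0.048, limma adjusted p = 0.688), and it was -0.068 without sham array 2.

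The remaining members among the first 12 against sham had higher values in F+. Tpm2 had a log2 fold change of 0.36 (SE 0.17, limma adjusted p = 0.690) and a square-root fold of 1.83, and Myot one of 0.41 (SE 0.25, limma adjusted p = 0.728). Fhl1 had 0.082 (SE 0.040, limma adjusted p = 0.690). Tmod1, which encodes the cap of the pointed end of the thin filament, gave 122.9, 123.1 and 118.9 on the F+ arrays, with 120.3, 116.7 and 117.2 on the F- arrays, against 112.1, 118.5 and 119.3 on the sham arrays. F+ array 3 overlapped the sham arrays, of which array 1 was low. Its log2 fold change was 0.061 (SE 0.032, limma adjusted p = 0.702) and 0.033 without sham array 1. Des, the gene of desmin, gave 160.2, 164.2 and 159.9 on the F+ arrays, with 160.8, 159.1 and 159.8 on the F- arrays, against 158.3, 159.8 and 159.5 on the sham arrays. The lowest F+ array was above the highest sham array by only 0.1 in the deposited unit. The other 18 members ranged from -0.029 (Fhl2) to 0.055 (Lmod2) on the log2 scale, with adjusted p of 0.763 to 0.998 from limma.

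Against sham, the F- group shows banding with less fibrosis. Of the members, 21 had higher and 9 had lower values in F-, with a median log2 fold change of 0.010 against -0.0025 over all features, and 18 to 25 were higher with quantile normalization or median centring. Among all features, on the values as deposited, 48.1% were higher and 51.9% lower in F-. No feature passed the adjusted threshold (0%). At an unadjusted p under 0.05 there were 0 members, where 3.07% of all features were higher and 2.96% lower, and this count was 1 without F- array 1 (Myoz1) and 2 without sham array 1 (Csrp3 and Lmod2). Both shares are for the fit with all 9 arrays. The groups did not overlap for 2 members with F- higher (Tpm1 and Csrp3, background 5.15%) and for 0 with F- lower (background 4.64%).

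Csrp3, which encodes muscle LIM protein, a Z-disc protein linked to the sensing of stretch, gave 132.4, 135.7 and 129.2 on the F+ arrays, with 140.8, 131.9 and 132.1 on the F- arrays, against 131.8, 126.9 and 125.1 on the sham arrays. The F- arrays were all above the sham arrays, with F- array 2 above sham array 1 by a small margin. The log2 fold change of F- over sham was 0.077 (SE 0.037, limma adjusted p = 0.743), with a square-root fold of 1.24, and it was 0.045 without F- array 1. Tpm1, at 126, 130 and 127.4 on the sham arrays, had a log2 fold change of 0.029 (SE 0.024, limma adjusted p = 0.772), which was 0.019 without sham array 1.

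Lmod2, whose leiomodin 2 lengthens thin filaments, gave 118.7, 117.9 and 117.9 on the F+ arrays, with 128.8, 113.8 and 118.4 on the F- arrays, against 121.9, 107.4 and 112.4 on the sham arrays. F- array 1 and sham array 1 were the highest of their groups, and the groups overlapped. For this gene the log2 fold change of F- over sham was 0.079 (SE 0.057, limma adjusted p = 0.758), and it was 0.029 without F- array 1 and 0.13 without sham array 1. Tnnc1 had 0.077 (SE 0.057, limma adjusted p = 0.759), and it was 0.026 without sham array 1, its lowest sham array. Myl2 had 0.045 and Myoz1 0.047 (SE 0.030 and 0.026, limma adjusted p = 0.754 and 0.743). For Pdlim5 and Fhl2 the values were 0.061 and 0.055 (SE 0.051 and 0.047, limma adjusted p = 0.772 and 0.774), with wide shifts. Pdlim5 was at 0.0056 without F- array 1 and 0.11 without F- array 3, and Fhl2 at 0.016 without sham array 1 and 0.095 without F- array 1.

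The last of the first 12 were close to no difference. Actc1, cardiac actin, gave 178.4, 177.5 and 177.5 on the F+ arrays, with 178.2, 177.5 and 179.9 on the F- arrays, against 172.2, 176.9 and 177.5 on the sham arrays, with only sham array 1 apart. On the log2 scale its fold change of F- over sham was 0.025 (SE 0.023, limma adjusted p = 0.786), and 0.011 without sham array 1. Actc1 lay at percentile 99.9 of all features, and whether signal at that level still follows the amount of RNA was not tested. Myom1, Actn2 and Pdlim3 had 0.021, 0.013 and -0.035 (SE 0.026, 0.021 and 0.048, limma adjusted p = 0.841, 0.886 and 0.860). Myom1 was at 0.0012 without F- array 2 and 0.037 without F- array 1, Actn2 at 0.0070 without sham array 2 and 0.020 without sham array 1, and Pdlim3 at -0.00048 without sham array 2 and -0.081 without sham array 3. The other 18 members ranged from -0.053 (Tpm2) to 0.097 (Myot), with adjusted p of 0.895 to 1 from limma. Both ends rested on single arrays: without F- array 1 Tpm2 was at -0.26 and Myot at -0.19, without F- array 2 Myot was at 0.32, and without F- array 3 Tpm2 was at 0.086.

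**Figure D3:**
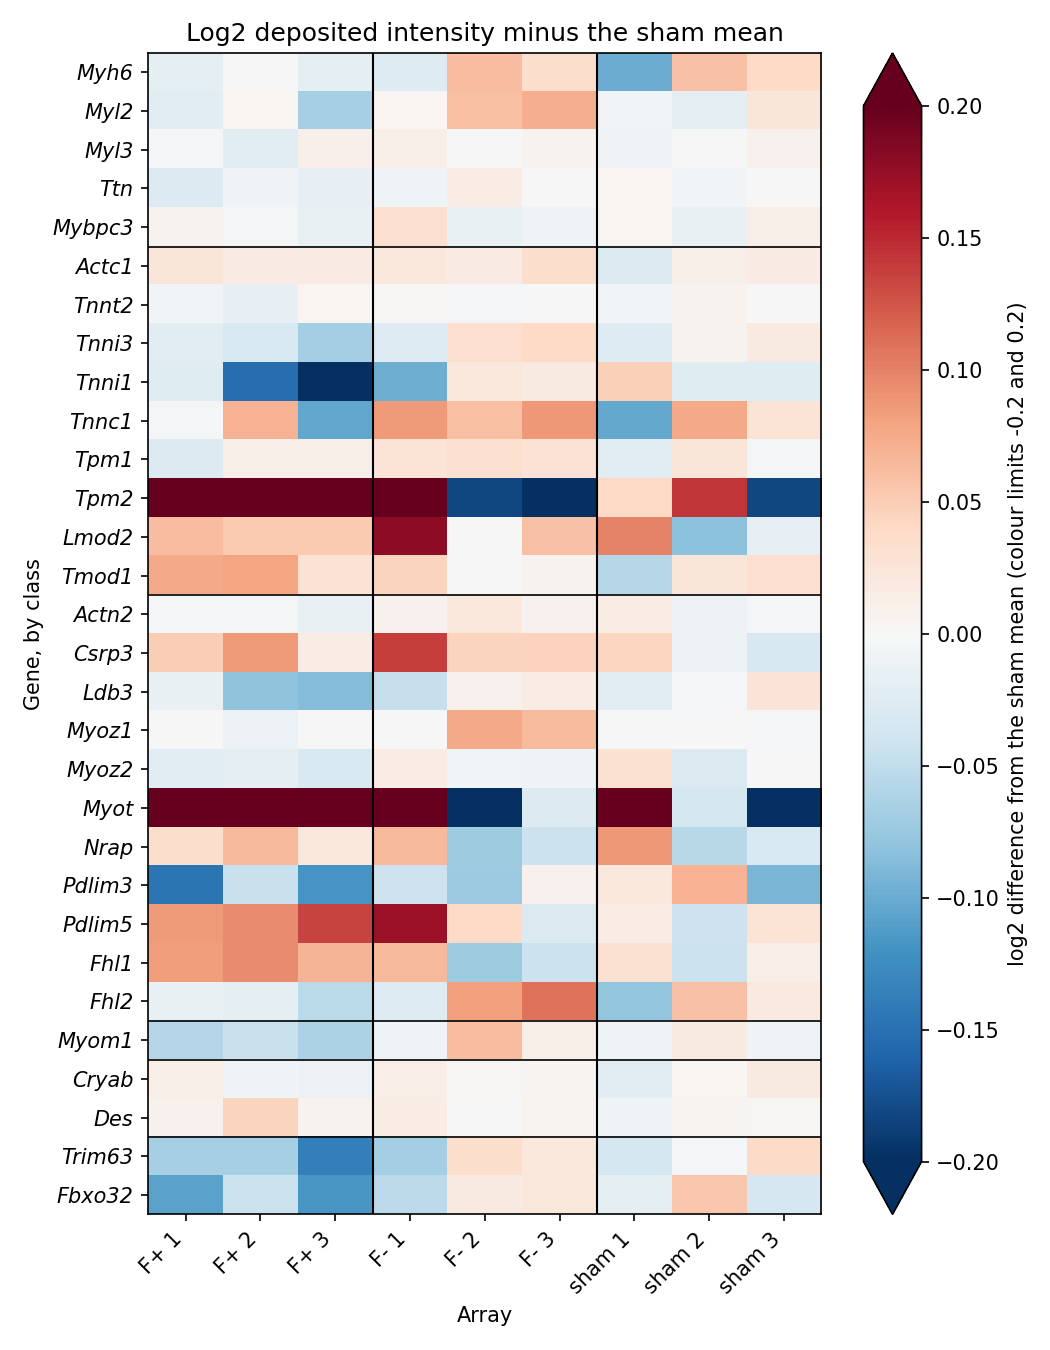
Log2 deposited intensity of the 30 measured genes minus the mean of the sham arrays (colour, limits -0.2 to 0.2), with genes in rows by class and the F+, F- and sham arrays in columns. F- array 1 shares the high values of Tpm2, Myot and Fhl1 and the low value of Trim63 with the F+ arrays, while Myom1 is low on the F+ arrays alone.

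The heat map shows several members in which F- array 1 lay nearer to the F+ arrays than to the other F- arrays. Nrap, whose product anchors thin filaments at the cell ends and in growing myofibrils, gave 119.8, 122.4 and 118.7 on the F+ arrays, with 122.3, 111.3 and 113.5 on the F- arrays, against 124.2, 112.5 and 114.5 on the sham arrays. Array 1 of both F- and sham was high. Its log2 fold change of F+ over F- was 0.057 with all arrays and 0.098 without F- array 1, where its adjusted p was 0.523 from limma, but 0.030 without F- array 2. A set of members hardly varied. Tnnt2, cardiac troponin T, ranged from 165.6 to 168.1 on the F+ arrays, 167.2 to 167.9 on the F- arrays, and in sham 166.9 to 168.4. Cryab, the small heat shock protein that guards desmin, ranged from 174.4 to 177.2 in F+, 176.1 to 177.3 in F- and 173.1 to 178 in sham. Myl3 ranged from 171.3 to 175 in F+, 173.8 to 175.2 in F- and 173 to 174.8 in sham. Every range of these genes overlapped that of the other groups. Tnnt2, Myl3 and Cryab lay at percentiles 99.8, 99.9 and 99.9 of all features, near the highest values of the arrays. Whether signal at that level still follows the amount of RNA was not tested. Mybpc3 ranged from 130.1 to 132.2 on the F+ arrays, 130.2 to 134.5 on the F- arrays, and in sham 130.1 to 132.6.

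Genes of other sarcomere proteins, 36 of 46 measured, gave a wider view of the same structures. Against F-, 16 had higher and 20 lower values in F+ (median -0.015), 0 passed the adjusted threshold, and 3 were higher (background 3.65%) and 3 lower (background 3.76%) at an unadjusted p under 0.05. The arrays of F+ and F- did not overlap for 5 genes of this list with F+ higher (background 4.46%) and for 6 with F+ lower (background 5.28%). Against sham, 22 were higher and 14 lower in F+ (median 0.013) and 24 were higher and 12 lower in F- (median 0.029), with 0 passing in either. Unc45b, the chaperone that folds myosin heads, gave 73.2, 70.8 and 71.4 on the F+ arrays, with 76.7, 77.5 and 79.3 on the F- arrays, against 74, 75.6 and 77.8 on the sham arrays. The F+ arrays lay below all 6 others, with a log2 fold change of F+ over F- of -0.12 (SE 0.029, limma adjusted p = 0.567). Tmod4, a tropomodulin known from skeletal muscle, gave 61.3, 62.6 and 65 on the F+ arrays, with 68.6, 84 and 86 on the F- arrays, against 70.7, 82.8 and 79.6 on the sham arrays. Here too the F+ arrays were below all others, with a log2 fold change of F+ over F- of -0.33 (SE 0.093, limma adjusted p = 0.601). Lmod1, a leiomodin of smooth muscle, had 0.095 (SE 0.030, limma adjusted p = 0.624).

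A few genes known to respond to pressure load are given for their values. Acta1, the skeletal actin that is re-expressed in loaded hearts, gave 127.8, 141.2 and 147.1 on the F+ arrays, with 169.4, 144.7 and 145.5 on the F- arrays, against 124.9, 132.3 and 135.5 on the sham arrays. All F- arrays lay above all sham arrays, with a log2 fold change of 0.22 (SE 0.076, limma adjusted p = 0.743). Myh7, the slow myosin heavy chain, gave 148.4, 143.3 and 141.5 on the F+ arrays, with 147, 137.1 and 137.4 on the F- arrays, against 159.1, 112.3 and 137.1 on the sham arrays, with the highest and the lowest value both on sham arrays. Xirp2, a protein of the intercalated disc, gave 117.4, 125.8 and 127.6 on the F+ arrays, with 134.6, 108.5 and 108.9 on the F- arrays, against 106.4, 106.8 and 106.6 on the sham arrays. Every banded array was above the tight sham arrays, and F- array 1 was the highest. The log2 fold changes over sham were 0.21 for F+ and 0.13 for F- (adjusted p = 0.652 and 0.747 from limma). Ankrd1, which encodes a titin-binding stress protein, gave 168.8, 167.5 and 166.3 on the F+ arrays, with 173.3, 161.9 and 160.3 on the F- arrays, against 164.4, 149.6 and 162.7 on the sham arrays. All F+ arrays of Ankrd1 lay above all sham arrays, and the F- arrays overlapped both, with a log2 fold change of F+ over sham of 0.078 (SE 0.045, limma adjusted p = 0.717).

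Genes of other cells also differed in value between the groups, although 0 of them passed the adjusted threshold in the lists given here, and in whole ventricle RNA fewer cells of a type and less RNA per cell cannot be told apart. Of 15 macrophage genes, 15 had higher values in F+ than in F- (median 0.23), with summed values of 881.2 to 950.5 on the F+ arrays, 723.7 to 887.5 on the F- arrays, and in sham 729.5 to 783. The macrophage genes were at a median of 0.25 above the sham mean on F- array 1, on the log2 scale, and at -0.067 and -0.080 on F- arrays 2 and 3. Of 15 fibroblast and matrix genes 11 were higher in F+ than in F- (median 0.033, sums 1239.4 to 1345.6 on the F+ arrays, 1207.7 to 1304 on the F- arrays, and in sham 1206.8 to 1256.9). Of 10 smooth muscle genes, which include Des and Lmod1, 8 were higher (median 0.049, sums 710.5 to 722.5 on the F+ arrays, 689.6 to 699.9 on the F- arrays, and in sham 693 to 711.9). Of 5 red cell genes 5 were higher (median 0.62, sums 180.4 to 292.2 in F+, 129.6 to 143.9 in F- and 144.5 to 161.5 in sham). Of 23 measured cardiomyocyte genes outside the sarcomere, 18 had lower values in F+ than in F- (median -0.014) and 17 lower values in F+ than in sham (median -0.028). At an unadjusted p under 0.05 from limma in F+ against F-, 7 macrophage genes, 1 fibroblast and matrix gene, 2 smooth muscle genes and 4 red cell genes were higher, and of the cardiomyocyte genes 1 was higher and 2 were lower. Over all features 3.65% were higher and 3.76% lower at this threshold. The part of these cells in the values of the sarcomere genes was not tested.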

How the data were processed

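Right ventricles of banded and sham-operated rats were measured on 9 Affymetrix arrays. The authors deposited 1 table of signal intensity values for 29215 features. The software, background correction and scale behind it are not given in the sources used here, and near-equal medians show only that the arrays were brought to a common level. The labels name Sepasol and biotinylated cRNA, the methods TRIzol and sense-strand cDNA. Genes were named from features with 1 symbol in the platform annotation, and all 30 measured members matched the RefSeq annotation (GRCr8) by gene ID. All 9 arrays were used, no column was left out and no pair of arrays was identical.

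The log2 values were fitted with limma 3.58.1 in R 4.3.3, with 1 mean per group, 3 contrasts, moderated variances and Benjamini-Hochberg adjustment over all features at 0.05. For each comparison the 12 members with the largest absolute moderated t were given in full, and from each further list at most 3 genes by moderated t, with Acta1, Myh7, Ankrd1, Xirp2, Nppa, Sln and Myl7. Ttn, Myh6, Des, Nrap and other members outside the 12 were described from their values, as were overlaps. The script was tested on simulated data. Alternatives were quantile normalization, median centring, leaving out dim or ambiguous features, a replicate block, trended and robust variances, square roots, untransformed values, fits on only the groups compared, and leaving out each array. The members and lists were chosen with earlier results of these data known. The number of arrays limits the precision.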

Additional observations from a re-analysis of the deposited data

How the results depend on the processing

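In all alternatives 0 of the 30 members passed the adjusted threshold in any comparison, and none of the fold changes of the members named among the first 12 changed direction. The median log2 fold change of the members in F+ over F- (-0.024) was -0.016 with quantile normalization, -0.026 with median centring and -0.029 to -0.020 when arrays were left out one at a time. In F- over sham (0.010) it was 0.019 with median centring and 0.0049 to 0.019 when arrays were left out. In F+ over sham (-0.0053) it turned to 0.0019 with median centring and was -0.0092 to -0.0015 when arrays were left out. The cause of these shifts was not tested. Replicate numbers did not pair the arrays (correlations of same-numbered arrays of different groups -0.205 to 0.0532), and with the replicate number as a block 0 members passed, with 3 in F+ over F- at an unadjusted p under 0.05 in place of 4. The number of all features that passed in F+ over F- was 1, and it was 0 with the block or with only the groups compared, 3 with untransformed values, without the dimmest 33.3%, with features of 1 symbol only or with trended and robust variances, and 0 to 3 when arrays were left out. In F+ over sham it was 0, and 1 with only the groups compared. Unadjusted counts in F+ over F- were 7 on the square-root scale and 9 on the untransformed scale, and in F+ over sham 7 and 9 in place of 3. In F- over sham Csrp3 had an unadjusted p of 0.044 from limma on the square-root scale. The shares of all features given above hold only for the log2 fit with all 9 arrays and no block. The unadjusted counts of members under these alternatives therefore have no background here. The probe design and the unknown scale limit how far small folds can be read.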

Other observations

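Of 5 ventricular genes, which include Myl2 and Myl3, 2 had higher and 3 lower values in F+ than in F- (median -0.010). Of 16 skeletal muscle genes 10 were higher and 6 lower (median 0.025), and of 11 endothelial genes 6 were higher and 5 lower (median 0.013). The skeletal muscle genes, except Tnnt3, gave values below the array medians of 33.4 to 33.9, so little can be read from their directions. Of 9 atrial genes 4 were higher and 5 lower in F+ than in F- (median -0.0043), and 8 were lower in F- than in sham (median -0.16). Sham array 2 was high for some of these genes, such as Sln and Myl7. Dkk3 and Nr2f2, the 2 with an unadjusted p under 0.05 in F- against sham, were not highest on that array. Dkk3 gave 75.2, 79.8 and 76.3 in F- against 89.4, 83.9 and 85.5 in sham. Nr2f2 gave 41, 42.8 and 41.3 in F- against 45.9, 46.2 and 47.1 in sham. In each of these lists 0 genes passed the adjusted threshold from limma, and at an unadjusted p under 0.05 in F+ against F- there were 1, 0, 2 and 3 genes, in the order ventricular, skeletal muscle, endothelial and atrial. Of all features 3.65% were higher and 3.76% lower at that threshold.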
